A study of Homo sapiens with 6 samples.

Results

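The peroxisome proliferator-activated receptors PPARA, PPARD and PPARG, their partner RXRA, the coactivator PPARGC1A and 4 target genes of the receptors (CPT1A, FABP1, PLIN2 and ANGPTL4) were followed in LM3 cells, an established human hepatocellular carcinoma (HCC) line, after stable knockdown of the zinc finger protein ZNF706. The 9 genes were taken by symbol from a table of 33007 genes, and each was found and tested. RNA-seq was performed on 3 control samples, made with the vector control, and 3 samples with ZNF706 knockdown, made with a lentiviral short hairpin RNA (shRNA) under puromycin selection. Both groups were given as WT genotype, liver tissue and the same HCC cell line. The labels do not say which hairpin was sequenced or whether replicates were separate cultures, so p-values measure only the spread between these samples, which may be technical. Depth was 62684076, 64713764 and 63054445 counts for the control group against 68548419, 65861994 and 69057423 counts for the knockdown group, so every knockdown sample was deeper than every control sample. ZNF706 itself had 3211, 3504 and 3357 counts in the control group against 2350, 2068 and 2298 after knockdown, or -0.73 ± 0.0505 on the log2 scale (SE, n = 3 against 3, edgeR adjusted p = 3.7e-05).

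PPARs are nuclear receptors that are switched on by fatty acids and their derivatives. Each binds DNA as a pair with a retinoid X receptor, at response elements made of a pair of half-sites in direct repeat, and recruits coactivators to genes for fatty acid uptake, oxidation and storage. PPARA is best known for the fasting response of the liver, PPARG for fat cell formation, and PPARD for fatty acid burning in many tissues.

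The receptors, the partner and the coactivator did not pass the test, whereas 3 of the 4 targets fell with ZNF706 knockdown. ANGPTL4 was 1.94-fold lower, PLIN2 was 1.37-fold lower and FABP1 was 3.04-fold lower. Of all 18390 genes tested, 22.8% passed an adjusted p of 0.05 (edgeR's quasi-likelihood test, Benjamini-Hochberg adjustment), with 12.4% lower and 10.4% higher in the knockdown samples. Among the 9 genes 3 were lower (33.3%) and 0 were higher. Normalised read counts (CPM, counts relative to the library size after TMM scaling) did not overlap between the groups for 6 of the 9 genes (66.7%), against 39.4% of all tested genes. With 3 samples against 3, an exact two-sided permutation test of such a gene gives p = 0.1, the smallest it can give. A rule of an unadjusted p below 0.05 with a log2 change of 0.3 or more in size, which 15.5% of the tested genes met, called the same 3 genes. Without knockdown replicate 2, 2648 genes passed the adjusted test in place of 4192, and the 3 targets were among them. Bulk RNA does not separate fewer cells of a type from less RNA per cell.

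The 3 targets that fell are shown by the 250 bases before the transcription start in RefSeq (GRCh38.p14). They are written 5′ to 3′ on the strand of the gene. Sequence outside these windows was not searched, so an element lying elsewhere in or near a gene could not be found. The element AGGTCANAGGTCA was searched on both strands, and capitals mark a match with at most 2 mismatches. The FABP1 window lies at chr2:88128063-88128312 and the PLIN2 window at chr9:19127493-19127742, both on the minus strand. The ANGPTL4 window lies at chr19:8363905-8364154 on the plus strand. The PLIN2 and ANGPTL4 windows fall inside the gene spans given below, and the FABP1 window falls just outside its span.
FABP1: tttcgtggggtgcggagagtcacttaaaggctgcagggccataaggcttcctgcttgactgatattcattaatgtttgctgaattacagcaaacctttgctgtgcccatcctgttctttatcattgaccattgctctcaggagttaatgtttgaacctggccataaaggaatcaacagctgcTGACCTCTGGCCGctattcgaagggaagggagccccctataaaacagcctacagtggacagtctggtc
PLIN2: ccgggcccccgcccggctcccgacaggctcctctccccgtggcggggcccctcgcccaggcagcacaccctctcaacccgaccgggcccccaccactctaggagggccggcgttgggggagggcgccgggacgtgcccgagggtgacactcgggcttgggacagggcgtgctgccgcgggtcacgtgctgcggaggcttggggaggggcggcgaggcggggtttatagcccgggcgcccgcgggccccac
ANGPTL4: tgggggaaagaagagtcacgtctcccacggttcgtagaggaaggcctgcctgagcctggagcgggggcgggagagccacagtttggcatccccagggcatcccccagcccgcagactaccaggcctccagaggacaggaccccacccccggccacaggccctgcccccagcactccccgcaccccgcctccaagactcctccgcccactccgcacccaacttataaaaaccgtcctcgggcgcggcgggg
The FABP1 window held the word CGGCCAGAGGTCA on its opposite strand, from -68 to -56 of the start, which ends in an exact half-site AGGTCA. Of 35116 RefSeq windows of the same length, 2.57% held the element within 2 mismatches and 12.1% held an exact half-site on either strand. The best match was 4 mismatches off in the ANGPTL4 window and 5 off in the PLIN2 window. Of the same RefSeq windows, 68.7% held a match within 4 mismatches and 99.4% within 5. The 9 genes have 17 windows in all, of which 1, that of FABP1, held the element within 2 mismatches and 4 held a half-site (3 of PPARG and 1 of FABP1), with the same half-site read in a pair of overlapping PPARG windows. These matches describe letters near the start, and binding there was not tested.

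ANGPTL4 (ENSG00000167772, chr19:8363289-8374370, plus strand, GRCh38 as in the table) codes for a secreted protein that inhibits lipoprotein lipase. Its values were 54.8, 56.7 and 56.2 CPM in the control group against 28.2, 25.6 and 32.8 CPM after knockdown. Every knockdown sample lay far under every control sample, and the knockdown samples spread more widely, with a coefficient of variation of 12.7% against 1.74%. The mean fell from 55.9 ± 0.975 to 28.8 ± 3.66 CPM (SD, n = 3 each), a log2 fold change of -0.95 ± 0.0796 (SE, 95% interval -1.13 to -0.78, edgeR adjusted p = 8.1e-05). The change was larger in size than that of 93.8% of the tested genes.

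PLIN2 (ENSG00000147872, chr9:19108375-19149290, minus strand), the protein that coats lipid droplets in most cells, had by far the most RNA of the 9. Its CPM was 677, 750 and 710 in the control group against 507, 520 and 531 after knockdown. The groups lay apart, with the highest knockdown sample under the lowest control sample. The mean fell from 712 ± 36.4 to 519 ± 12.02 CPM (SD, n = 3 each), or by 27.1%, a log2 fold change of -0.46 ± 0.0399 (SE, 95% interval -0.54 to -0.37, edgeR adjusted p = 9.9e-05). In counts these were 41898, 47651 and 43604 against 35565, 34872 and 37168, so the fall was present before scaling although the knockdown samples were deeper.

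FABP1 (ENSG00000163586, chr2:88122982-88128062, minus strand), the fatty acid binding protein of liver and gut cells, was at a low level in LM3 cells. Its counts were 50, 73 and 75 in the control group against 33, 19 and 20 after knockdown. The groups did not overlap, and knockdown replicate 1 was nearest to the control samples. CPM fell from 1.06 ± 0.221 to 0.347 ± 0.107 (SD, n = 3 each), a log2 fold change of -1.61 ± 0.367 (SE, edgeR adjusted p = 0.012). Its 95% interval was wide, from -2.43 to -0.78, and by limma on log2(FPKM + 0.1) with no filter the adjusted p was 0.0564. Hepatocyte markers were low and uneven in the same samples. ALB, the main plasma protein of hepatocytes, was at 189, 899 and 882 counts in the control group against 587, 635 and 138 after knockdown, with overlapping groups, and the hepatocyte regulator HNF4A averaged 0.0967 FPKM. Of 11 hepatocyte and HCC markers tested, 9 were lower in value and 2 higher. Their median log2 change was -0.67, and -0.968 to -0.168 on leaving out 1 sample. SERPINA1 (-1.47) and APOB (-0.98) passed the test (edgeR adjusted p = 0.0034 and 0.0205), while HNF4A (-1.15, edgeR adjusted p = 0.128) did not. The part of hepatocyte-type expression in the FABP1 value was not tested.

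CPT1A (ENSG00000110090, chr11:68754620-68841931, minus strand) is an enzyme for the entry of long-chain fatty acids into mitochondria, the rate-limiting step of their oxidation. It did not follow the other targets past the threshold. Its CPM was 144, 151 and 149 in the control group against 144, 139 and 143 after knockdown. The lowest control sample was just above the highest knockdown sample in CPM (144.14 against 143.86), while in FPKM the groups overlapped (19.08 to 19.87 against 18.95 to 19.53). The log2 fold change was -0.06 ± 0.0347 (SE, edgeR adjusted p = 0.25), and the 95% interval, from -0.14 to 0.02, was narrow.

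**Figure D1:**
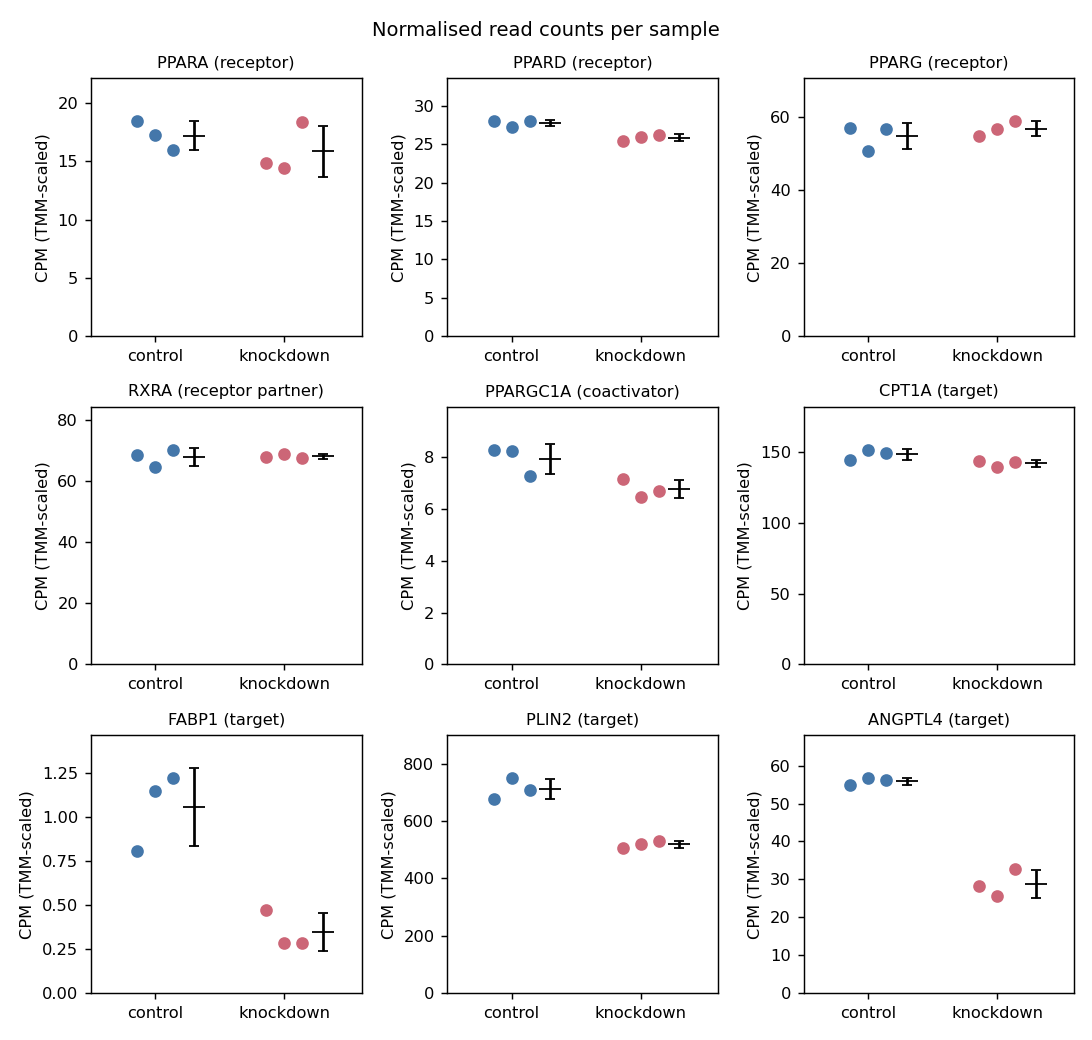
Normalised read count (CPM after TMM scaling, linear axes from 0) of each of the 9 genes in the 3 control and 3 knockdown samples, with each point 1 sample and the bar the mean ± SD. The points of ANGPTL4, PLIN2 and FABP1 separate clearly, while those of PPARA, PPARG and RXRA overlap.

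Of the receptors, PPARG was the most abundant per transcript length and PPARA the least. PPARA (ENSG00000186951, chr22:46150521-46243755, plus strand) gave 18.5, 17.3 and 16.0 CPM in the control group against 14.9, 14.4 and 18.4 CPM after knockdown. Knockdown replicate 3 lay among the control samples and the other two lay under them. The log2 fold change was -0.12 ± 0.109 (SE, 95% interval -0.36 to 0.13, edgeR adjusted p = 0.50), the widest interval among the receptors.

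PPARD (ENSG00000112033, chr6:35342558-35428191, plus strand) gave 28.0, 27.3 and 28.0 CPM in the control group against 25.4, 26.0 and 26.2 CPM after knockdown. The groups did not overlap, but the gap was small. The log2 fold change of -0.10 ± 0.0586 (SE, 95% interval -0.23 to 0.03) had an edgeR adjusted p of 0.26. PPARG (ENSG00000132170, chr3:12287368-12434356, plus strand) gave 56.8, 50.7 and 56.7 CPM in the control group against 54.6, 56.6 and 58.7 CPM after knockdown. Control replicate 2 was the lowest of the 6, and without it the sign of the difference turned. The log2 fold change was 0.05 ± 0.0531 (SE, 95% interval -0.07 to 0.17, edgeR adjusted p = 0.57).

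RXRA (ENSG00000186350, chr9:134317098-134440585, plus strand), the common DNA-binding partner, gave 68.7, 64.6 and 70.3 CPM in the control group against 67.9, 68.9 and 67.5 CPM after knockdown. All knockdown values lay inside the control range. Its log2 fold change was 0.00 ± 0.0409 (SE, edgeR adjusted p = 0.95), with a 95% interval from -0.09 to 0.10, and its sign turned without control replicate 2 or knockdown replicate 2. RXRB, the other partner with enough counts, was at 0.04 on the log2 scale (edgeR adjusted p = 0.65), and RXRG had at most 6 counts in a sample and was not tested.

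PPARGC1A (ENSG00000109819, chr4:23755041-23904089, minus strand), also called PGC-1α, is a coactivator of PPARs that drives mitochondrial genes. It gave 8.29, 8.26 and 7.28 CPM in the control group against 7.16, 6.47 and 6.70 CPM after knockdown. The groups just missed each other in CPM, and in FPKM control replicate 3 (0.57) was under knockdown replicate 1 (0.58). The log2 fold change of -0.23 ± 0.108 (SE, 95% interval -0.47 to 0.01) had an edgeR adjusted p of 0.17.

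**Figure D2:**
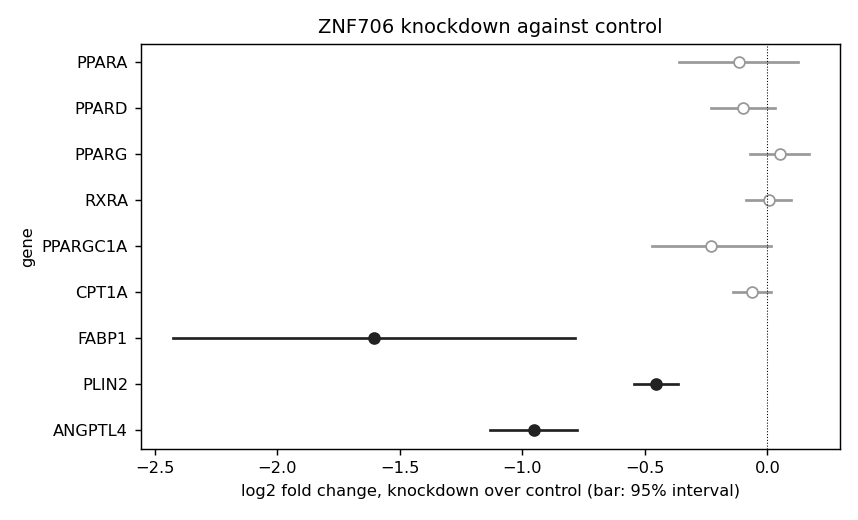
Log2 fold change (knockdown over control) of the 9 genes with its 95% interval, filled where the edgeR adjusted p was below 0.05. ANGPTL4 (-0.95), PLIN2 (-0.46) and FABP1 (-1.61) lie left of 0, and the intervals of the other genes include 0.

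Levels were compared between genes in FPKM, which corrects for length. Averaged over all 6 samples, PLIN2 stood first with 107.5 FPKM, followed by CPT1A with 19.4, ANGPTL4 with 14.9, PPARG with 10.7, PPARD with 5.27, RXRA with 4.94, PPARA with 1.10, PPARGC1A with 0.59 and FABP1 with 0.248 FPKM. The place of ANGPTL4 in this order depended on the group. In the control samples it was level with CPT1A (19.24 to 19.74 against 19.08 to 19.87 FPKM) and wholly above PPARG (9.59 to 10.86 FPKM). In the knockdown samples it lay at 9.22 to 11.77 FPKM, wholly under CPT1A and overlapping PPARG (10.7 to 11.48 FPKM). PPARD was wholly above RXRA in the control samples (5.28 to 5.46 against 4.61 to 4.97 FPKM), while in the knockdown samples their ranges overlapped (5.09 to 5.23 against 4.97 to 5.10 FPKM). The most abundant receptor transcript in this liver-derived line was thus that of PPARG (9.59 to 11.48 FPKM over the samples), and the sample values of PPARA (0.97 to 1.24 FPKM) were all under it. FABP1 was lowest in each group. The genes overlapping PPARA, PPARG and RXRA in the table had under 0.1% of their counts.

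**Figure D3:**
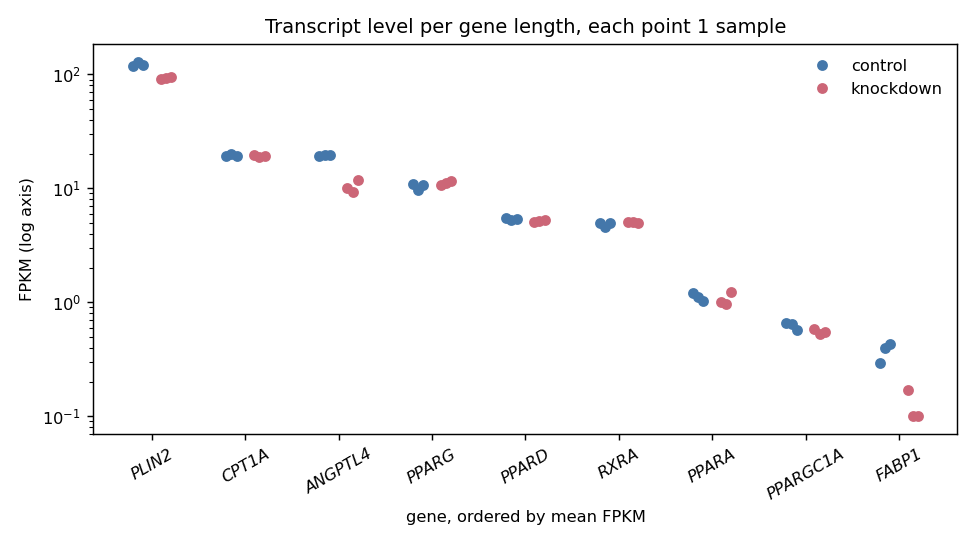
FPKM of the 9 genes in each sample on a log axis, ordered by the mean over the 6 samples, with each point 1 sample. PLIN2 is at 90.3 to 129.05 FPKM and FABP1 at 0.1 to 0.43 FPKM, and ANGPTL4 steps down from the control to the knockdown samples.

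The transcripts most like ANGPTL4 across the 6 samples were PLCD3, a phospholipase C (Pearson r = 0.998 of log2 CPM), TNFAIP2 (r = 0.998) and the histone acetyltransferase HAT1 (r = 0.998), among 14124 genes whose mean count was 50 or more. These values carry no test. The points share the difference between the groups, and 1559 genes had an r over 0.9.

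Of 12 coregulators tested, PPARGC1A among them, 5 fell and 0 rose, and their median log2 change was -0.15, against 0.0095 for all genes. Of all tested genes 12.4% fell and 10.4% rose, which are the shares to set beside this and each later list count. NCOA3 and NCOA1, p160 coactivators that bind nuclear receptors, fell by 0.23 and 0.25 on the log2 scale (edgeR adjusted p = 0.0038 and 0.029). MED1, the Mediator subunit that contacts nuclear receptors, fell from 181 ± 1.62 to 157 ± 7.19 CPM (SD, n = 3 each, edgeR adjusted p = 0.0048). NRIP1, a corepressor, and LPIN1, a phosphatidate phosphatase that also acts with PPARGC1A, fell by 0.28 and 0.17. Of 16 alternatives, NCOA1 was called in 8 and NRIP1 and LPIN1 in 12 each, and with the GC trend removed 3 of the list fell. The values of PPARGC1B (0.11), NCOA2 (-0.12), EP300 (-0.04), CREBBP (-0.13) and the corepressor NCOR1 (-0.08) did not pass the test. Without knockdown replicate 2, 3 of the 12 fell, and limma on log2(FPKM + 0.1) with no filter called 0 of them.

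Fatty acid uptake and binding genes moved in both directions, with 2 of 10 tested higher and 2 lower. The transport protein SLC27A1 rose from 1.44, 1.34 and 1.43 CPM to 3.04, 3.03 and 2.86 CPM, with no overlap and a log2 fold change of 1.08 ± 0.173 (SE, edgeR adjusted p = 0.0019), at a low level of 0.313 FPKM in the knockdown samples. It was called in 13 of 14 alternatives, and by limma on log2(FPKM + 0.1) with no filter the adjusted p was 0.094. SLC27A5, a fatty acid and bile acid CoA ligase, rose by 0.63 ± 0.116 (SE, edgeR adjusted p = 0.0040). The lower genes were FABP1 and SLC27A2, whose -0.17 had an adjusted p of 0.047 and was lost on leaving out any of 5 of the 6 samples. DBI, the acyl-CoA binding protein, was the most abundant of the list and was at 0.10 on the log2 scale (adjusted p = 0.39).

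Mitochondrial oxidation showed no common direction, with 2 of 16 higher, 3 lower and a median of 0.011. PDK4, a fasting-induced kinase that shuts off pyruvate dehydrogenase, was the largest fall of the list. Its CPM was 35.8, 25.2 and 31.4 in the control group against 17.4, 18.0 and 17.9 after knockdown. The knockdown samples were nearly level, the control samples were not, and the groups did not overlap (log2 fold change -0.79 ± 0.114, SE, edgeR adjusted p = 0.0011). The acyl-CoA dehydrogenases ACADVL and ACADM fell by 0.20 each, and the call of ACADM ended with the GC trend removed (edgeR adjusted p = 0.135, smallest fall over the alternatives -0.10). By contrast, the carnitine transporter SLC22A5 rose by 0.33 and CPT2, the inner-membrane partner of CPT1A, by 0.28 (edgeR adjusted p = 0.0029 and 0.011; CPT2 was picked after its value was seen). HADHA (-0.01) and ETFA (0.01), the most abundant of the list, did not pass the test.

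Peroxisomal oxidation genes divided evenly, with 3 of 10 higher and 3 lower. EHHADH, the bifunctional enzyme of peroxisomal oxidation, rose from 4.69, 5.69 and 5.95 CPM to 10.9, 7.83 and 8.89 CPM without overlap (log2 fold change 0.76 ± 0.149, SE, edgeR adjusted p = 0.0056). PEX11A, which divides peroxisomes, fell by 0.39, and HSD17B4 and ABCD3, the peroxisomal fatty acyl-CoA transporter, by 0.16 and 0.12. With the GC trend removed the calls of HSD17B4 and ABCD3 ended (edgeR adjusted p = 0.585 and 0.958), their smallest values over the alternatives were -0.04 and -0.0034, and 1 gene of the list was lower. Without knockdown replicate 2 there were 2 higher and 0 lower, and without control replicate 2 there were 3 higher and 1 lower. Of the ketone body and fasting genes, 1 of 7 was higher and 0 were lower: UCP2, a mitochondrial inner-membrane carrier, rose from 7.89 ± 0.188 to 11.4 ± 0.167 FPKM (SD, n = 3 each, edgeR adjusted p = 0.00024).

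Besides PLIN2, 3 other lipid droplet genes of 11 tested fell and 1 rose. PLIN4, another droplet coat protein, gave 120, 119 and 114 CPM in the control group against 91.4, 96.5 and 97.9 CPM after knockdown, with no overlap (log2 fold change -0.30 ± 0.0396, SE, edgeR adjusted p = 0.00073). G0S2, an inhibitor of the lipase PNPLA2, fell by 0.32 (adjusted p = 0.038), and MGLL, a monoglyceride lipase named after its value was seen, by 0.15, with G0S2 called in 7 and MGLL in 6 of 16 alternatives. HILPDA, a hypoxia-inducible droplet protein that also inhibits PNPLA2, went the other way, from 15.9 ± 0.824 to 22.4 ± 1.71 CPM (log2 fold change 0.49, edgeR adjusted p = 0.0029). PNPLA2 (0.03) and PLIN3 (0.02) did not pass the test. With any of control replicate 2 or knockdown replicates 1, 2 and 3 left out, 2 of the list fell in place of 4.

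Among lipoprotein genes, ANGPTL4 was the 1 of 7 that fell, and the lipoprotein receptor VLDLR rose by 0.31 (edgeR adjusted p = 0.042), a call lost on leaving out any sample but control replicate 2. The apolipoproteins APOA1 (-1.95), APOA2 (-1.51) and APOC3 (-1.58) had large values that did not pass (APOA1 was called in 3 of 16 alternatives, APOA2 in 5 of 16 and APOC3 in 1 of 12), and APOA1 ranged from 0 to 138 counts within the knockdown group. Without knockdown replicate 3, and by limma on log2(FPKM + 1) with a mean FPKM of at least 1, 3 genes of the list fell and 0 rose. Of the adipogenic PPARG targets, 1 of 6 rose and 1 fell. ME1, the NADPH-producing malic enzyme, rose from 54.4 ± 0.856 to 65.0 ± 2.25 CPM (edgeR adjusted p = 0.0016), and PCK1, the gluconeogenic carboxykinase, was lower by -2.17 at under 1 CPM in all samples, a call lost on leaving out any sample but control replicate 1. SCD (-0.03), the fatty acid desaturase with the highest level in the list, did not pass the test.

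**Figure D4:**
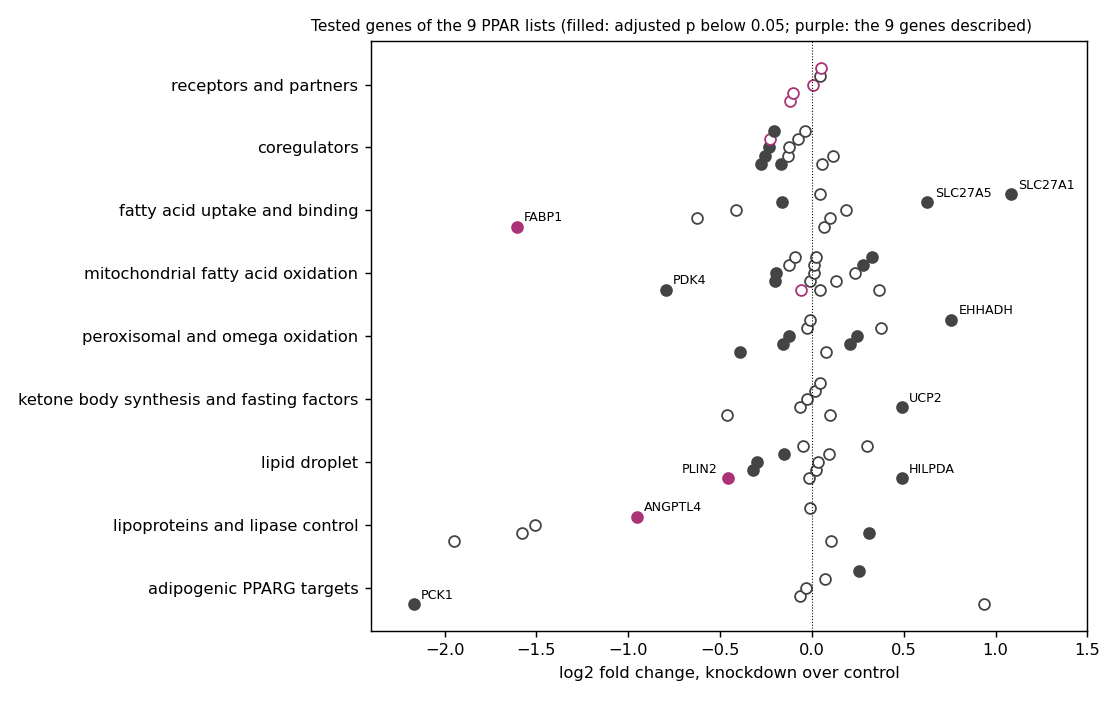
Log2 fold change (knockdown over control) of every tested gene in 9 lists of PPAR-related genes, with filled points at an edgeR adjusted p below 0.05 and purple for the 9 genes described. Points spread over a small vertical range only to keep them apart, and most lists hold filled points on both sides of 0.

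Over the 9 lists together, leaving out the 9 genes described, 11 of 75 tested genes rose and 16 fell (10.4% and 12.4% of all tested genes). The median log2 change of the 75 was -0.0082. Leaving out 1 sample at a time gave 9 to 11 that rose and 7 to 13 that fell, with 7 lower without knockdown replicate 2 and 9 without control replicate 2. The KEGG PPAR signaling pathway, as annotated in the table and including 8 of the 9 genes, had 8 of 57 tested genes higher and 9 lower, with a median of 0.044; without those 8 it had 8 of 49 higher and 6 lower, with a median of 0.065. Named after their values were seen, the pathway's other changes included the liver X receptor NR1H3 (0.31), PCK2 (-0.55) and ACSL1 (-0.27), of which ACSL1 was called in 12 of 16 alternatives. With library size alone in place of TMM scaling, the share of higher genes among all called rose from 45.5% to 64.4%, and the lists without the 9 genes had 13 higher and 9 lower. With limma on log2(FPKM + 0.1) and no filter, the lists without the 9 genes had 9 of 85 tested genes higher and 4 lower.

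Marker genes of other cell types were read in the same samples. Of 11 hepatocyte and HCC markers tested, 2 fell (SERPINA1 by 1.47 and APOB by 0.98) and 0 rose, with 1 that fell without control replicate 3 or without knockdown replicate 1 or 3. APOB was called in 8 of 14 alternatives. Without control replicate 2 its call was also lost, and HNF4A passed in its place. Their summed level was 2441, 2505 and 2629 CPM in the control group against 2387, 2471 and 2510 CPM after knockdown, nearly all of it KRT8 and KRT18, epithelial keratins. Without these keratins it was 12.7, 29.8 and 33.7 CPM against 18.0, 19.1 and 6.79 CPM, with ALB the most abundant, so control replicate 1 and knockdown replicate 3 were low. The defining liver genes of the label were therefore weak in this line.

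Adipocyte markers had 0 of 4 called and summed to 3.02, 6.26 and 4.64 CPM in the control group against 6.42, 7.60 and 9.09 CPM after knockdown, most of it ADIRF, with LEP at 2 counts or fewer. Of the immune markers 1 of 3 rose (CD68, a lysosomal protein that other cells also express, by 0.64), their sums were 27.2, 27.0 and 28.9 against 40.8, 44.5 and 41.2 CPM, and the pan-leukocyte PTPRC had at most 8 counts in a sample. Of the fibroblast and stellate markers 3 of 5 rose (COL1A1 by 0.20, PDGFRB by 0.68 and RGS5 by 0.62, the last called in 6 of 14 alternatives and lost on leaving out any sample but control replicate 2), with sums of 85.2, 82.1 and 84.7 against 98.0, 99.0 and 98.5 CPM. Of the endothelial markers 1 of 2 fell (CDH5 by 0.70), with sums of 13.6, 14.9 and 16.3 against 11.2, 12.6 and 13.1 CPM. Most of the immune sum was CD68 and most of the fibroblast sum was COL1A1 (means over all samples of 34.0 and 79.4 CPM). The other tested markers of these 3 cell types did not pass the test. LYZ (-1.71), LUM (-1.26) and DCN (-0.04) were lower in value, while CD14 (0.69) and PECAM1 (0.15) were higher. The adipocyte, immune, fibroblast and endothelial sums did not overlap between the groups, and their part in the results on the PPAR targets was not tested.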

How the data were processed

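RNA of LM3 cells was sequenced in 3 control and 3 knockdown samples. The authors mapped the reads to GRCh38 with HISAT2 (adapter trimming with cutadapt 1.9 and FastQC, per the submitters' processing notes) and deposited raw counts per gene and FPKM values, which they divided by gene length and library size. The counting program, strand handling and annotation release are not given in the sources used here. The quasi-likelihood test of edgeR 4.0.16 (R 4.3.3; glmQLFit, glmQLFTest) was run on the counts after filterByExpr and TMM scaling, with group as the only term and Benjamini-Hochberg adjustment over 18390 genes. SE is the absolute log2 fold change over the root of F. DESeq2 1.42.0, limma 3.58.1 on log2 FPKM, other filters, scalings, a GC trend, a replicate block and leaving out each sample were alternatives. Figures were drawn with matplotlib 3.10.9 (Python 3.11.15).

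The members and the lists were chosen with earlier results of these data known. Apart from the 9 genes, ZNF706, receptors, partners and coregulators, up to 4 genes of each list with the smallest p and up to 2 with the highest FPKM were named, and the 3 genes most like the member with the smallest p. Some genes that this rule names are not reported here. RefSeq promoter windows (GRCh38.p14) matched 9 of 9 genes by symbol. Depth limits FABP1 most, and any interval covers the spread between these samples.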

Additional observations from a re-analysis of the deposited data

How the results depend on the processing

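ANGPTL4 and PLIN2 were lower and past the threshold under each of 16 alternatives, FABP1 under 12 of 13, and the other members were never called. With limma on log2(FPKM + 0.1) and no filter, FABP1 was at -1.086 (adjusted p = 0.0564) and 2668 genes changed in place of 4192; the cause was not tested. RXRA turned to -0.07082 with the GC trend removed. The DESeq2 Wald test called the same number of members, 3. Leaving out 1 sample at a time gave 2648 (without knockdown replicate 2) to 3424 changed genes, 3 members each time, and log2 fold changes of -1.056 to -0.8732 for ANGPTL4, -0.495 to -0.4192 for PLIN2, -1.889 to -1.48 for FABP1 (highest adjusted p = 0.0481), -0.08499 to -0.04641 for CPT1A, -0.2358 to -0.04975 for PPARA, -0.1146 to -0.08722 for PPARD, -0.2902 to -0.1952 for PPARGC1A and -0.7651 to -0.6985 for ZNF706. Without control replicate 2 PPARG turned to -0.005115 (range -0.005115 to 0.07605) and RXRA to -0.03139 (range -0.03139 to 0.02852), and without knockdown replicate 2 RXRA was at -0.001709.

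Deviations of same-numbered samples correlated at 0.0489, -0.00051 and 0.092, against -0.0775 to 0.0318 for differently numbered samples. Deviations within a group of 3 sum to 0, so these values do not decide whether the numbers mark pairs. The numbers are not stated to mark a shared batch, and the main test did not read them as pairs. With a replicate block 4361 genes and 3 members were called, and of the lipoprotein genes 3 were lower and 0 higher in place of 1 and 1. FABP1 gave no value with a mean count of at least 50 or a mean FPKM of at least 1, and PPARGC1A gave none with the latter.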
